A study of Mus musculus with 6 samples.

Results

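The genes described here encode the proteins of the cytosolic ribosome in mouse heart. They were chosen from the deposited gene table as the protein coding rows whose symbol begins with *Rpl* or *Rps*, without the *Rps6k* kinases and without pseudogene symbols. The rule found 82 of 21776 genes. Of these, 75 encode ribosomal proteins in the strict sense, 45 of the large and 30 of the small subunit. A further 6 are paralogs (*Rpl3l*, *Rpl7l1*, *Rpl22l1*, *Rpl36al*, *Rps27l* and *Rps27rt*). The remaining gene, *Rps19bp1*, carries the prefix but encodes a regulator of the deacetylase SIRT1 and not a ribosomal protein. Total RNA of 3 *Trdn-as* KO and 3 WT hearts was compared. The lncRNA *Trdn-as* is transcribed from the opposite strand of *Trdn*, which encodes the calcium release protein triadin. In the KO mice a polyadenylation site had been placed in the first exon of *Trdn-as* with Cas9 in embryonic stem cells, and the line was crossed back to C57BL/6 and made homozygous. Sex and age of these hearts are not given in the sources used here. The study counts 3 hearts in each group, so p-values for KO against WT measure the spread between hearts of a group. In the fit on library depth they measure the spread of all 6 hearts around the fitted line.

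A ribosome joins a small subunit, which decodes the mRNA, with a large subunit, which links the amino acids and lets the chain leave through an exit tunnel. Each protein is generally needed once per ribosome, apart from the stalk proteins, and the cell keeps the mRNAs of all of them at high and coordinated levels. Most of these mRNAs start with a C followed by an unbroken run of C and T, the terminal oligopyrimidine (TOP) tract, through which the kinase mTOR sets their translation. In striated muscle *Rpl3l* takes the place of *Rpl3*, the protein next to the peptidyl transferase centre.

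To show what these starts look like, bases were read from 10 before to 20 after the annotated RefSeq start (GRCm38.p6) that lies nearest to the start of the gene in the table. The 11th base of each line below is the annotated start, the strand is that of the gene, and capitals mark the longest unbroken run of C and T. The members shown are those that the comparisons below turn on, with *Rpl27a*, which has the longest run.
Rpl27a: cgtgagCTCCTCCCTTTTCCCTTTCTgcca
Rpl35: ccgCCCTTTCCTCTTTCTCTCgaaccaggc
Rpl13a: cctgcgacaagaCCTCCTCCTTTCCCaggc
Rps10: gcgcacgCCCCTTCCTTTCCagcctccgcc
Rps27: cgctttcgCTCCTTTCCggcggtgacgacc
Rplp0: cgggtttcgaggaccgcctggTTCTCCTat
Rpl4: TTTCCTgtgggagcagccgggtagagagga
Rpl3l: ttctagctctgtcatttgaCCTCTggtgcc
Rpsa: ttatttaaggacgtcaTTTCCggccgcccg
Rps28: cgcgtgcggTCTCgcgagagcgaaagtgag
Rpl26: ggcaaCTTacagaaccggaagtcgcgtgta
These windows lie at chr7:109519185-109519214 (plus strand) for *Rpl27a*, chr2:39005112-39005141 (minus) for *Rpl35*, chr7:45128726-45128755 (minus) for *Rpl13a*, chr17:27635225-27635254 (minus) for *Rps10* and chr3:90213629-90213658 (minus) for *Rps27*. Those of the other genes are at chr5:115559457-115559486 (plus) for *Rplp0*, chr9:64173377-64173406 (plus) for *Rpl4*, chr17:24727816-24727845 (plus) for *Rpl3l*, chr9:120127756-120127785 (plus) for *Rpsa*, chr17:33824543-33824572 (minus) for *Rps28* and chr11:68901556-68901585 (plus) for *Rpl26*. The annotated starts of *Rpl35* and *Rps10* lie 493 and 1385 bases from the gene start in the table. All windows span the promoter and the first bases of the first exon. In *Rpl35*, *Rps10* and *Rps27* the annotated start itself is a C inside the run, whereas in *Rpl3l*, *Rpl4*, *Rpl26* and *Rps28* the longest run has 6 bases or fewer.

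Over all members, 62 were matched to 74 annotated starts. A C at the start followed by at least 4 more bases of C or T was present at 14 of these (18.9%), compared with 2.51% of all 32850 starts in the RefSeq table. An unbroken run of at least 8 bases of C and T anywhere in the window was present at 23 (31.1%), compared with 11.2% of all starts. An annotated start may lie some bases from the one used in heart, so these shares describe the annotation.

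**Figure D1:**
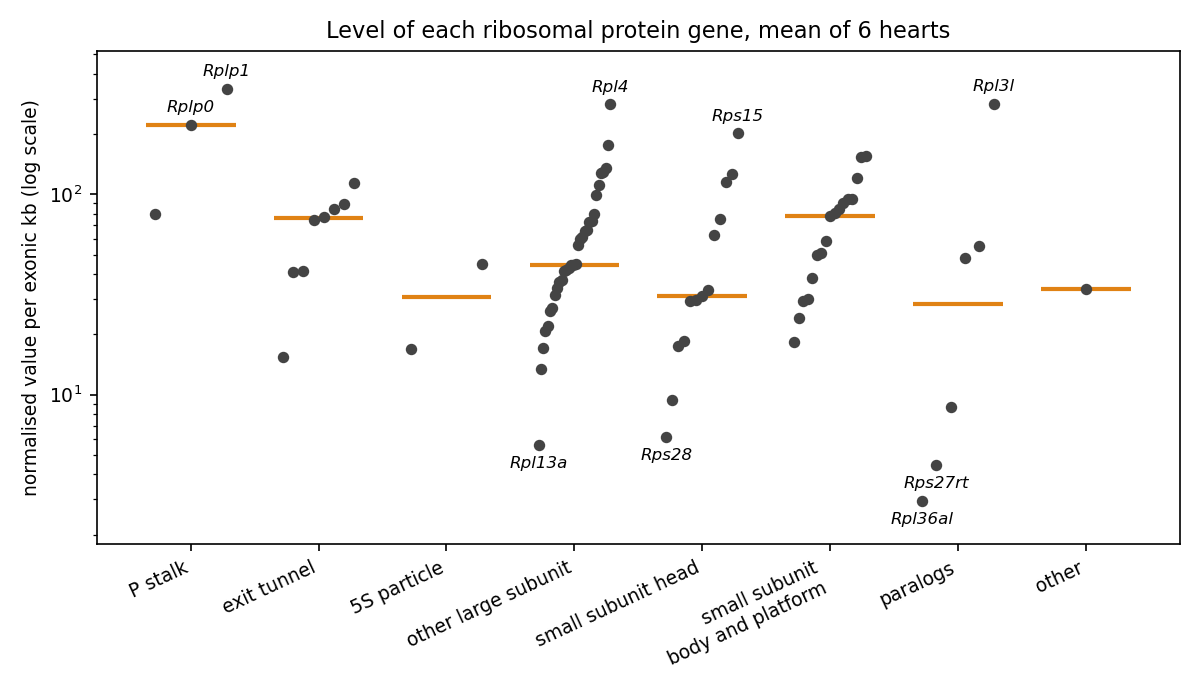
Level of each of the 82 members as the mean normalised value of 6 hearts per exonic kilobase, on a log axis, with members grouped by their place in the ribosome. Each point is 1 gene and orange lines are group medians; *Rplp1*, *Rpl3l* and *Rpl4* lie highest, and *Rpl36al* and *Rps27rt* lowest.

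Levels of the members differed widely. A value is the read count of a gene divided by the size factor of its library. By value alone, *Rpl4*, a large subunit protein, was highest, with a mean of 563 over the 6 hearts. It was followed by *Rpl3l* with 464.5, *Rplp0* with 369, *Rpl7* with 267 and *Rpsa* with 257. Because reads increase with gene length, levels were compared between genes per exonic kilobase, with the exons of all annotated transcripts of a gene joined. On that scale *Rplp1* was highest at 336, followed by *Rpl3l* at 283, *Rpl4* at 281, *Rplp0* at 223 and *Rps15* at 202. *Rplp0* and *Rplp1* build the stalk that recruits the elongation factors, and *Rps15* belongs to the head of the small subunit. The lowest members with a strict ribosomal role were *Rpl13a* at 5.60 and *Rps28* at 6.11 per exonic kilobase. The plot of levels by place in the ribosome shows that the medians of the large subunit (55.6 per exonic kilobase, 45 genes) and of the small subunit (54.7, 30 genes) were close to each other.

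Reads that fit more than 1 place in the genome had been removed before counting, and ribosomal protein genes have many copies. In 78 of the 82 members, at least 1 stretch of 75 bases, the read length, also occurs in a transcript of another gene. The median share of such stretches was 40.3%, and 32 members had more than 50%. It was 0% in *Rpl3l*, 8.47% in *Rpl4*, 83.2% in *Rpl3* and 92.5% in *Rpl5*, which joins the large subunit together with its small 5S rRNA. Levels set side by side between genes carry this limit, whereas KO and WT are compared within a gene. Duplicate reads had been removed as well, and what this took from short genes with many reads, or from deeper libraries, was not tested. The 32 members with more shared stretches and the 50 others had a median of 44.4 and 57.1 per exonic kilobase, respectively. The 64 pseudogene rows of the family took few reads, with a median mean value of 1.83, and 59 were below the mean value of 10 used as the limit for testing.

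*Trdn-as* (listed as AC157017.2, chr10:33222345-33256418) was read at 1, 0 and 1 in the KO hearts and at 690, 773 and 688 in the WT hearts. It was at least 240-fold lower in KO, taken against the floor of 3 reads per library, which covers counting error only (limma, log2 fold change -8.82 ± 0.24 SE, adjusted p = 3.91e-15). The libraries held 2.59 to 3.62 M counted reads. WT replicate 1 was the shallowest and KO replicate 1 the deepest, a ratio of 1.40. Cardiac markers such as *Myh6* and *Tnnt2* were all present, and of 5 skeletal muscle markers 2 were not in the table and the others summed to at most 6 in any library.

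The first comparison asked whether loss of *Trdn-as* changed the ribosomal protein mRNAs in the heart. The members took 0.320, 0.291 and 0.310% of the deposited total in the KO hearts and 0.324, 0.313 and 0.299% in the WT hearts. The groups overlapped, with 0.307 ± 0.0145% in KO and 0.312 ± 0.0126% in WT (SD, n = 3 each). The proportion of large to small subunit genes differed by less than its spread between hearts. The summed values of the former were 1.703 ± 0.04 times those of the latter in KO and 1.704 ± 0.0037 times in WT (SD, n = 3 each).

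A mean value of at least 10, the limit for testing, was reached by 80 of the 82 members. None passed an adjusted p of 0.05 (limma, Benjamini-Hochberg over 13753 genes, of which 0.0291% passed). None had an unadjusted p under 0.05 either, with limma or with limma-voom, while 5.74% of all genes tested did. The smallest unadjusted p among the members belonged to *Rps27* (0.096), and the smallest adjusted p was 0.879. The median log2 fold change of the members was -0.04, compared with 0.0016 over all genes tested. The plot of fold changes by gene shows how narrow most intervals are. The 95% interval stayed within a 1.5-fold change in either direction for 74 of the 80 members and within 1.3-fold for 50.

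**Figure D2:**
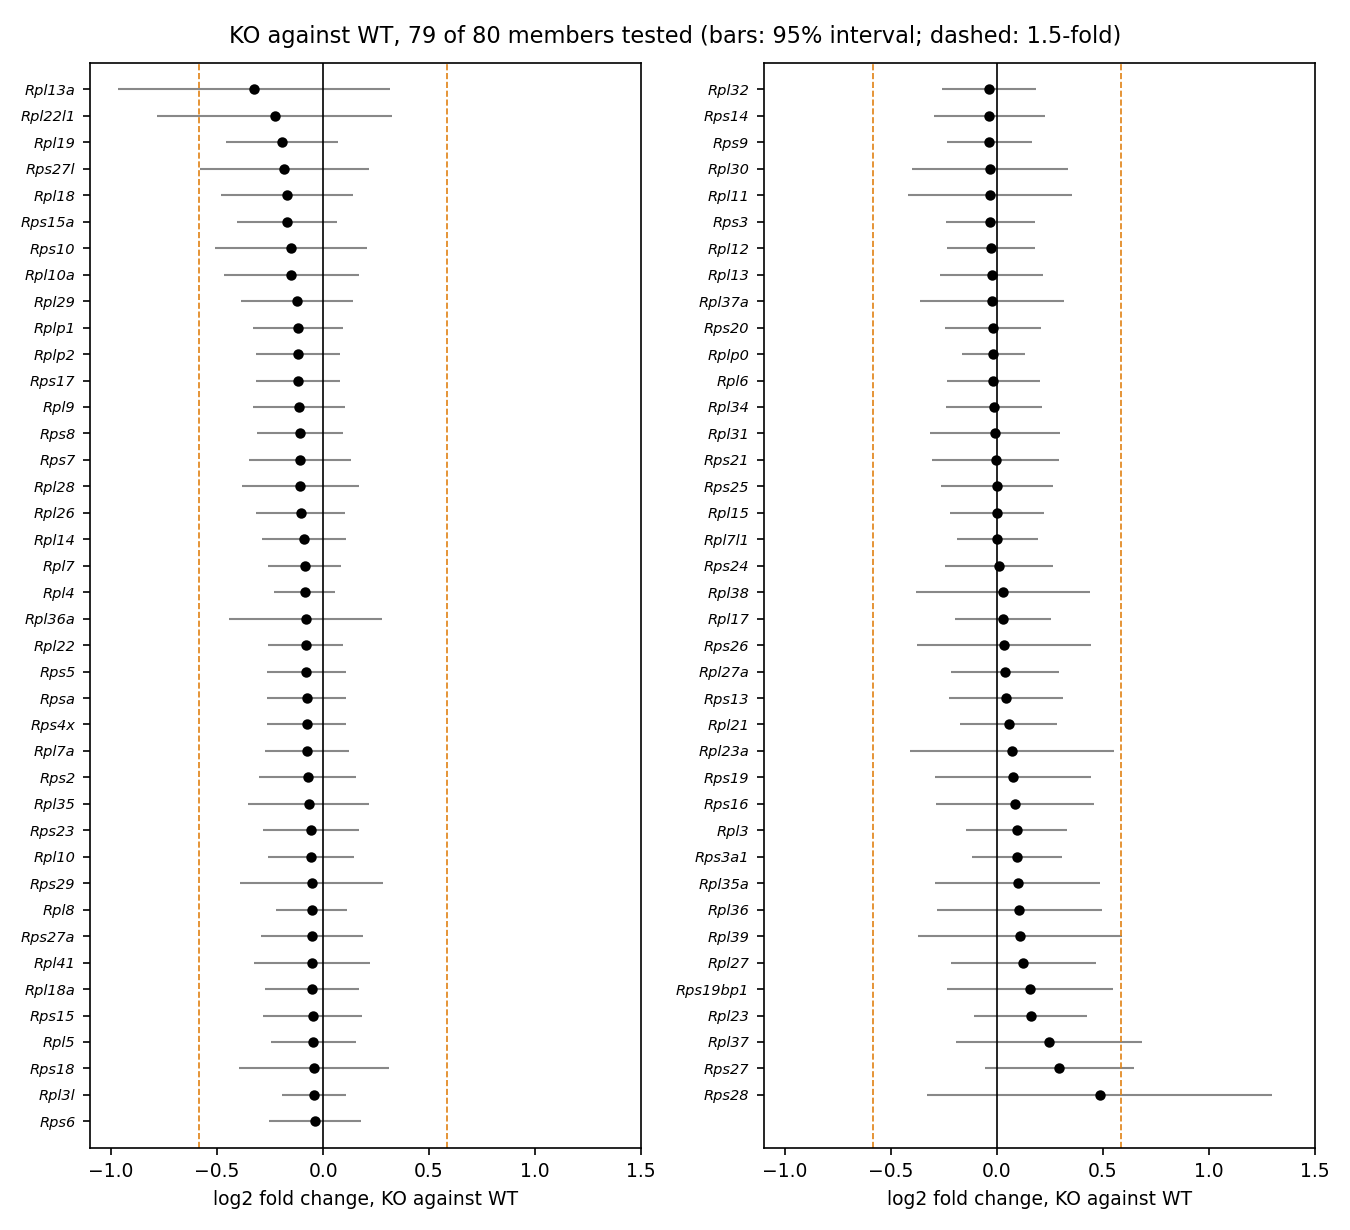
Log2 fold change of KO against WT for 79 of the 80 members tested, ordered from the lowest to the highest, with points for estimates, bars for 95% intervals and dashed lines at 1.5-fold in either direction. Every interval includes 0, and the widest belong to *Rps28* and *Rpl13a*, which have few reads.

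Estimates below 0 were more frequent than above, with 57 members lower and 23 higher in KO (71.3% lower, compared with 49.4% of all genes tested). Scaled by the total of the values, 49 were lower and 31 higher, with the median of the members at -0.02 and that of all genes tested, which moved along, at 0.02. The split depended on the libraries. With the read total added to the model, 42 were lower and 38 higher, and the median was -0.01. The median was also -0.0015 without WT replicate 1, -0.0062 without KO replicate 2, -0.08 without KO replicate 1 and -0.09 without WT replicate 3.

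Members with low estimates included *Rpl13a*, *Rpl22l1*, *Rpl19* and *Rps27l*. *Rpl13a* (chr7:45125558-45128761), whose protein can leave the ribosome to silence inflammatory mRNAs, had values of 10, 11 and 10 in KO and 16, 12 and 12 in WT. All KO values were below all WT values, but the log2 fold change of -0.33 ± 0.31 (SE) did not pass (limma adjusted p = 0.925), and the values rest on few reads. *Rpl19*, at the exit of the tunnel, had 92, 76 and 86 in KO and 106, 95 and 90 in WT, with overlap and a log2 fold change of -0.20 ± 0.13 (SE).

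The only other member whose groups did not overlap was *Rps10* (chr17:27630422-27636629), a protein of the small subunit head. It had 39, 41 and 41 in KO and 43, 43 and 49 in WT, with a log2 fold change of -0.15 ± 0.17 (SE, limma adjusted p = 0.945). Non-overlap was thus seen in 2 of 80 members (2.5%), both with KO below WT, compared with 9.07% of all genes tested, with KO below WT in 4.44% and above WT in 4.64%.

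The highest estimates were those of *Rps28*, *Rps27*, *Rpl37*, *Rpl23* and *Rps19bp1*. *Rps28*, a small protein of the small subunit head, had 10, 11 and 15 in KO and 10, 4 and 13 in WT. These values overlap and the interval is wide, from 0.797-fold to 2.46-fold. *Rps27* (chr3:90212667-90213651), a zinc binding protein of the small subunit, had 53, 61 and 57 in KO and 43, 56 and 41 in WT. A single WT heart, replicate 2, fell within the KO range, and the log2 fold change was 0.29 ± 0.17 (SE, limma adjusted p = 0.879). *Rpl37* had 37, 32 and 45 in KO and 35, 36 and 25 in WT, and *Rpl23*, whose protein can bind MDM2, had 111, 88 and 113 in KO and 99, 95 and 84 in WT. Both overlapped. *Rps19bp1*, which is not part of the ribosome, had 37, 36 and 42 in KO and 38, 31 and 34 in WT.

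By place in the ribosome, the 3 stalk genes were all lower in estimate in KO (median log2 fold change -0.12). The same held for 5 of the 8 genes assigned here to the rim of the tunnel exit (*Rpl17*, *Rpl19*, *Rpl22*, *Rpl23a*, *Rpl26*, *Rpl31*, *Rpl35* and *Rpl39*). Lower estimates were found in 32 of the 45 large subunit genes (median -0.04) and 22 of the 30 small subunit genes (median -0.04). Of all genes tested, 49.4% were lower in KO. *Rplp0*, often used as a reference gene in RT-qPCR, had 366, 367 and 367 in KO and 386, 344 and 385 in WT. Its 95% interval reached from 0.891-fold to 1.10-fold. *Rpl4* had 601, 516 and 524 in KO and 580, 590 and 569 in WT, with an interval of 0.853-fold to 1.04-fold.

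Among the paralogs, *Rpl3l* had the highest values. It had 487, 424 and 462 in KO and 502, 451 and 461 in WT, and its log2 fold change of -0.04 ± 0.07 (SE) had an interval of 0.875-fold to 1.08-fold. *Rpl3* had 158, 130 and 146 in KO and 157, 130 and 121 in WT (0.09 ± 0.11, SE). Neither gene separated the groups. The value of *Rpl3l* (chr17:24727820-24736143, plus strand) was 3.17 ± 0.09 times that of *Rpl3* (chr15:80077796-80083353, minus strand) in KO and 3.49 ± 0.31 times in WT (SD, n = 3 each). The ratio was 3.08, 3.26 and 3.16 in KO and 3.20, 3.47 and 3.81 in WT. The ranges overlap, and a two-sided exact permutation test gave p = 0.2, where 3 against 3 samples cannot go below 0.1. The KO minus WT difference of -0.323 became -0.470 without WT replicate 1, where the groups no longer overlapped, and -0.164 without WT replicate 3. Taken per exonic length, the KO hearts had a ratio of 6.12 ± 0.17 and the WT hearts one of 6.75 ± 0.59 (SD, n = 3 each). That length joins the exons of all annotated transcripts, 3175 bases in *Rpl3* and 1643 in *Rpl3l*. Their longest coding transcripts are close in length, with 1351 and 1375 bases. The ratio per length thus depends on which length is used. *Rpl3*, unlike *Rpl3l*, shares most of its stretches with other transcripts, and what this adds to the ratio was not tested.

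**Figure D3:**
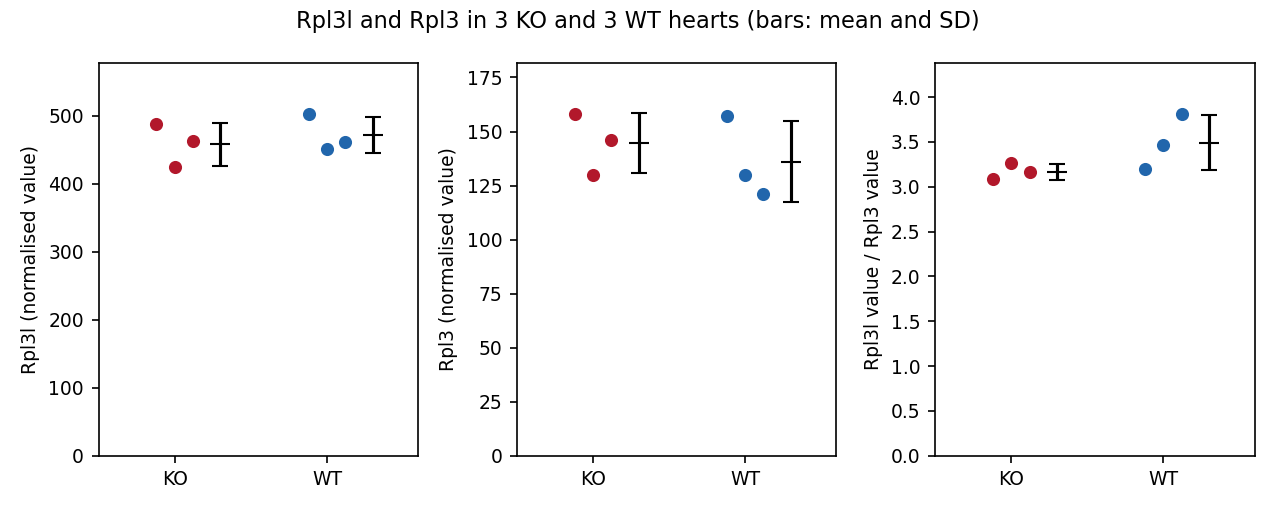
Normalised values of *Rpl3l* and *Rpl3* and their ratio in 3 KO (red) and 3 WT (blue) hearts, with mean and SD beside the points. *Rpl3l* lies between 424 and 502 and *Rpl3* between 121 and 158, and KO and WT overlap in all panels.

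The other paralogs had lower values than *Rpl3l* in both groups. *Rpl7l1*, a nucleolar relative of *Rpl7* that acts in large subunit assembly, had 189, 207 and 181 in KO and 204, 179 and 193 in WT. *Rpl22l1* had 15, 15 and 17 in KO and 21, 20 and 15 in WT, and *Rps27l*, a p53 target, had 41, 35 and 34 in KO and 47, 45 and 34 in WT. In both, 1 WT heart, replicate 3, lay as low as the KO hearts. The retrogene *Rpl36al* had 4, 3 and 3 in KO and 5, 4 and 5 in WT, and *Rps27rt*, a retrocopy of *Rps27*, had 3, 0 and 2 in KO and 1, 1 and 3 in WT. Both were too low to be tested.

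The second comparison asked whether the members follow the depth of the libraries. In order from the shallowest to the deepest library, the mean log2 deviation of the 80 members from their own means was 0.10 in WT replicate 1, 0.02 in WT replicate 2, 0.01 in KO replicate 3, -0.10 in KO replicate 2, -0.08 in WT replicate 3 and 0.05 in KO replicate 1. The members thus tended to be high in the shallowest library, low in KO replicate 2 and WT replicate 3, and above their mean again in the deepest. WT replicate 1 was the single highest library for 37 members (46.3%, compared with 20.1% of all genes tested) and the lowest for 0. KO replicate 2 was the single lowest for 30 members (37.5%, compared with 16.8%) and WT replicate 3 for 22 (27.5%, compared with 16.3%). The libraries in which most members were lowest were thus 1 KO and 1 WT heart.

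**Figure D4:**
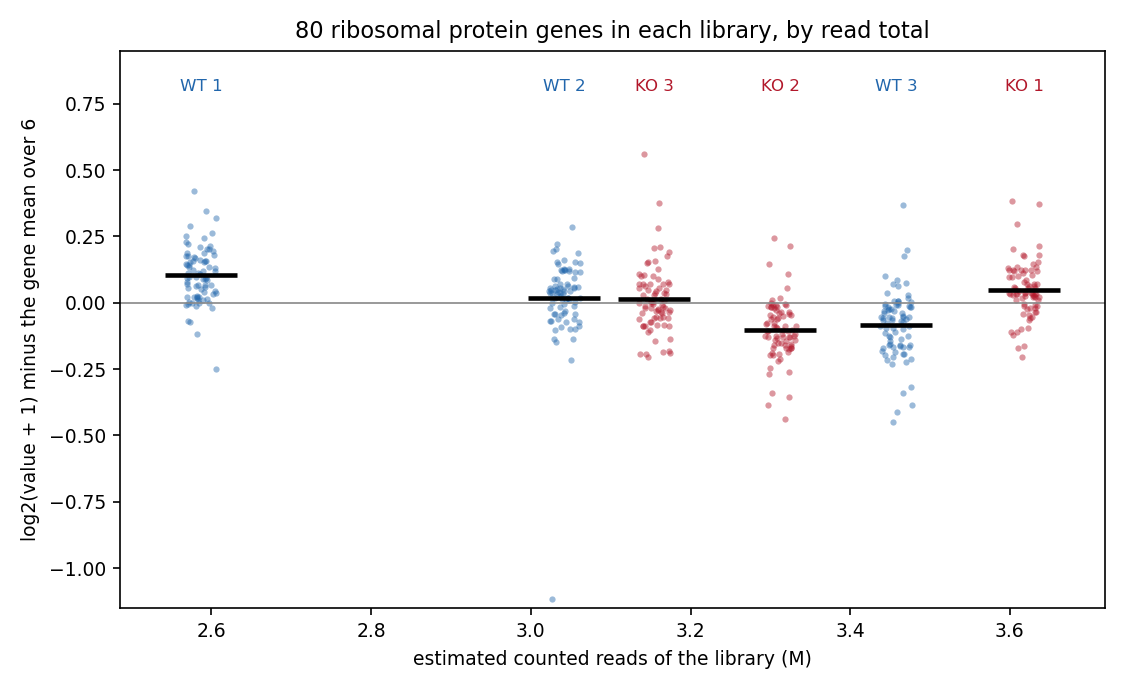
Deviation of log2(value + 1) from the mean of the gene over 6 libraries for the 80 members tested, against the estimated counted reads of the library in M. Points are genes (KO red, WT blue) and black lines their means, which run from 0.10 in WT replicate 1 to -0.10 in KO replicate 2 and 0.05 in KO replicate 1.

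In a fit of log2 values on log2 read total, 0 of 80 members passed an adjusted p of 0.05, compared with 0.116% of all genes tested. The smallest adjusted p among them was 0.425 (limma). At an unadjusted p under 0.05 there were 5 members (6.25%, compared with 8.27% of all genes tested), and limma-voom found 6. All 5 fell with depth, a direction and level met by 4.06% of all genes tested. They were *Rpl35*, *Rpl26*, *Rpsa*, *Rplp1* and *Rps27a*. From WT replicate 1 through WT replicate 2, KO replicate 3, KO replicate 2 and WT replicate 3 to KO replicate 1, *Rpl35*, a protein of the tunnel exit, had values of 119, 96, 96, 95, 81 and 88. Its neighbour *Rpl26* had 191, 168, 167, 154, 153 and 153 in the same order. Both were highest in the shallowest library and low in the deepest ones. *Rpsa*, also known as the laminin receptor, had 292, 263, 269, 230, 237 and 250. *Rplp1* had 194, 162, 178, 155, 168 and 149, and *Rps27a*, a fusion of ubiquitin with a small subunit protein, had 143, 129, 126, 120, 108 and 118. The fitted change from the shallowest to the deepest library was -0.48 ± 0.18 in *Rpl35*, -0.34 ± 0.13 in *Rpl26* and -0.29 ± 0.12 in *Rpsa* on the log2 scale (SE).

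The steepest slopes were in part those of low genes. *Rpl13a* (-1.13 per doubling of the read total), *Rpl22l1* (-1.12), *Rpl35* (-0.99), *Rps27l* (-0.74) and *Rps27a* (-0.72) had the most negative slopes on the log2 scale. The most positive were *Rps28* (0.80), *Rpl36* (0.40), *Rps29* (0.37), *Rps27* (0.34) and *Rpl15* (0.29), of which none had an unadjusted p under 0.05. *Rpl36*, for instance, had 48, 44, 53, 38, 48 and 63 from the shallowest to the deepest library, with no order apparent.

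Over all members, 69 had a negative and 11 a positive slope (86.3% negative, compared with 50.4% of all genes tested). The median slope was -0.25 per doubling, which is -0.12 from the shallowest to the deepest library, compared with -0.0055 per doubling over all genes tested. The histograms of members beside all genes show this shift. It depended on the libraries at both ends of the depth range. Without WT replicate 1, the shallowest, the median slope was -0.02, with 42 members falling and 38 rising, and 0 members had an unadjusted p under 0.05 (3.71% of all genes tested). Without KO replicate 1, the deepest, it was -0.49, and 7 members (8.75%, compared with 11.5% of all genes tested) had an unadjusted p under 0.05. Without both, a fit chosen after seeing the data, it was -0.65 over the 4 remaining libraries, with 64 members falling and 16 rising and 4 at an unadjusted p under 0.05 (5%, compared with 4.96% of all genes tested). With genotype in the model it was -0.33 and 64 members fell. Scaled by the total of the values it was -0.14 while the median of all genes tested moved to 0.11, and 54 members fell and 26 rose.

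**Figure D5:**
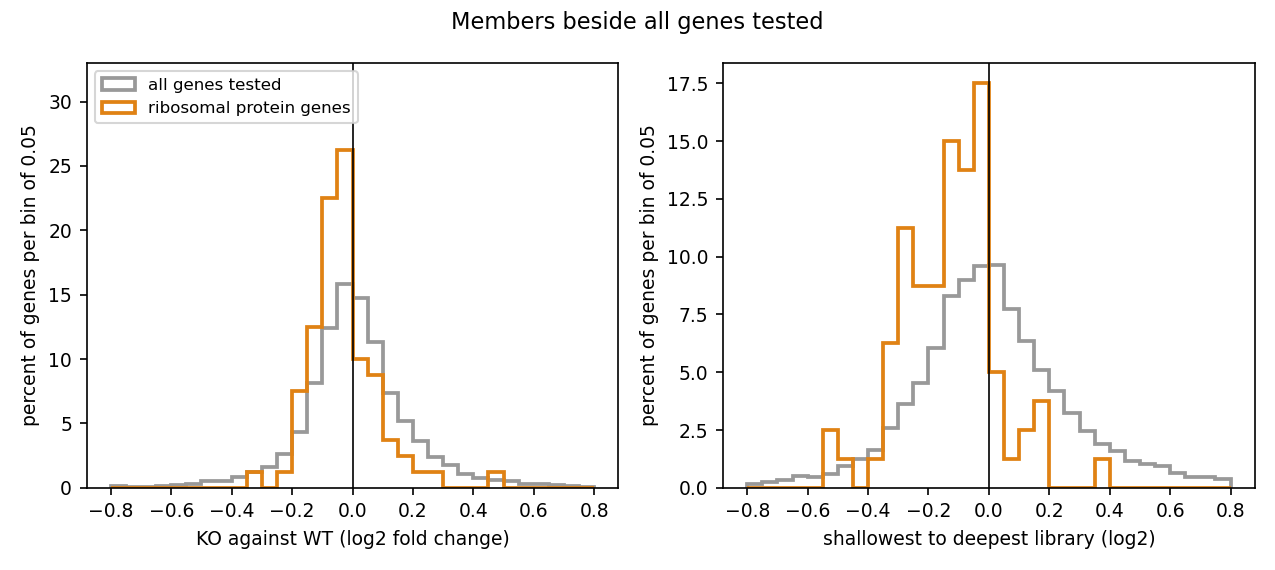
Percent of genes in bins of 0.05 for the log2 fold change of KO against WT (left) and for the fitted log2 change from the shallowest to the deepest library (right), with the 80 members in orange and the 13753 genes tested in grey. The medians of the members are -0.04 and -0.12, and those of all genes 0.0016 and -0.0027.

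Both WT replicate 1, where most members were high, and KO replicate 2, where most were low, were also the highest library in some marker sums. The summed value of 8 cardiomyocyte markers was 119486 in WT replicate 1, ranged from 97272 to 119486 in the WT hearts and from 93658 to 98110 in the KO hearts, and was lowest in KO replicate 1. All 8 had negative estimates for KO against WT, none of which passed the adjusted test, and negative slopes over depth. Over depth 5 of the 8 passed (*Myh6*, *Ttn*, *Pln*, *Actc1* and *Tnnt2*), among 16 genes that passed in all. *Myh6*, the main myosin heavy chain of the mouse heart, had a slope of -0.89 ± 0.11 per doubling on the log2 scale (SE, limma adjusted p = 0.0049). Without WT replicate 1, 0 genes passed over depth, with 3.71% at an unadjusted p under 0.05. Blood markers, 6 genes in total of which 5 were tested, summed to 437 in WT replicate 1, ranged from 152 to 437 in WT and from 169 to 322 in KO, and all 5 had negative estimates for KO against WT and negative slopes. Fibroblast markers ranged from 2635 to 2851 in WT and from 2480 to 2803 in KO, with 2 of 5 estimates higher and 3 lower in KO. Endothelial markers ranged from 3558 to 4058 in WT and from 3547 to 4117 in KO, and all 5 had positive estimates for KO against WT but negative slopes over depth. KO replicate 2 was highest in fat markers (43, with 9 to 43 in KO and 13 to 17 in WT), leukocyte markers (1068, with 759 to 1068 in KO and 863 to 963 in WT), atrial markers (620, with 434 to 620 in KO and 449 to 566 in WT) and smooth muscle markers (735, with 645 to 735 in KO and 693 to 717 in WT). Of those tested, 2 of 5 leukocyte, 3 of 4 atrial and 1 of 4 smooth muscle markers had positive estimates for KO against WT. Outside the cardiomyocyte list, no marker tested passed in either comparison. The part of cell composition in the slopes of the ribosomal protein genes was not tested. In heart tissue, fewer cells of a type and less RNA per cell cannot be told apart.

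Taken gene by gene within the groups, the variance of a member over 3 hearts had a median of 0.773 times the variance expected from counting, compared with 1.09 times over all genes tested. With so few hearts, counting alone already gives a median below 1. Among genes with a mean value of 50 to 300 it was 0.777 for 58 members and 1.04 for all. By gene length, the fitted change with depth had a median of -0.09 in the 11 members with fewer than 1000 exonic bases, -0.15 in the 34 with 1000 to 2000, -0.13 in the 29 with 2000 to 4000 and -0.10 in the 6 with 4000 to 8000. In the other genes of these length classes the medians were -0.05, -0.04, -0.01 and -0.0053, so the gap was smallest in the shortest genes. Of the members tested, 20 had a run of C and T of at least 8 bases anywhere in the window, with or without the annotated start. Their median change with depth was -0.14, and that of 40 tested members with shorter runs was -0.12. *Rpl35* belongs to the former and *Rpl26* and *Rpsa* to the latter.

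Other genes of the translation machinery were read from lists. Of all genes tested, 49.4% were lower in KO, which is the share to set beside the KO counts of each list. Whether the splits in these lists depend on single libraries, as among the members, was not tested. *Fau* and *Rack1* encode ribosomal proteins whose symbols carry no such prefix. *Rack1*, a scaffold on the small subunit, had 296, 293 and 293 in KO and 294, 302 and 287 in WT, and *Fau* had 126, 119 and 115 against 119, 116 and 102. The groups of both overlapped, and neither gene passed either test. Of 18 further TOP mRNAs, 12 were lower and 6 higher in KO, and 17 fell with depth, compared with 50.4% of all genes tested. Over depth 4 had an unadjusted p under 0.05, compared with 8.27% of all genes tested. The smallest p for KO against WT in this list was that of *Eef2*, the translocase of elongation, with 1426, 1387 and 1373 in KO and 1617, 1486 and 1384 in WT (-0.10 ± 0.06, SE, limma adjusted p = 0.882). Its groups overlapped by WT replicate 3.

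Of 24 initiation factor genes, 20 were lower and 4 higher in KO, compared with 49.4% lower among all genes tested. With depth 19 fell, and 4 had an unadjusted p under 0.05 over depth (compared with 50.4% and 8.27% of all genes tested). *Eif1*, which guards start codon choice, had 249, 239 and 237 in KO and 301, 264 and 248 in WT (-0.16 ± 0.08, SE, limma adjusted p = 0.855). Of 30 ribosome assembly genes, 17 were higher and 13 lower in KO, and 19 rose with depth. Here 2 were higher in KO at an unadjusted p under 0.05, which 5.74% of all genes tested reached in either direction. *Nop56*, a core protein of box C/D snoRNPs, had 125, 103 and 93 in KO and 80, 87 and 72 in WT. No WT heart reached the lowest KO heart, which was also the case in 4.64% of all genes tested. The log2 fold change of *Nop56*, 0.41 ± 0.13 (SE), did not pass over all genes (limma adjusted p = 0.762). Of 15 genes that control TOR and TOP mRNAs, 9 were lower and 6 higher, with *Akt1* at 494, 476 and 479 in KO and 540, 531 and 489 in WT. Of 77 mitochondrial ribosomal protein genes, a list added after the data had been seen, 49 were lower and 28 higher, and 3 were lower at an unadjusted p under 0.05, again beside 5.74% of all genes tested. *Mrpl51* had 238, 218 and 211 in KO and 268, 257 and 251 in WT (-0.22 ± 0.08, SE, limma adjusted p = 0.807). All its KO values were below all WT values, which was also the case in 4.44% of all genes tested. In none of these lists did a gene pass the adjusted test in either comparison.

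Many members carry snoRNAs in their introns, and 43 such snoRNA rows lay inside 25 members. Their median mean value was 2, and only *Snora65*, in an intron of *Rpl12*, was high enough to be tested. It had 17, 11 and 18 in KO and 18, 16 and 7 in WT, with overlap (0.22 ± 0.35, SE, limma adjusted p = 0.966), while *Rpl12* itself had 160, 157 and 155 in KO and 177, 164 and 142 in WT.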

How the data were processed

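Stranded total RNA libraries were made from 3 *Trdn-as* KO and 3 WT hearts (SMARTer kit, NextSeq500, 75-base single-end reads). The authors trimmed reads with Trimmomatic 0.39, aligned them to GRCm38 with STAR 2.6.1d, removed duplicates (Picard 2.21.1), multi-mapping, ribosomal and mitochondrial reads, and counted exonic reads by strand with featureCounts 1.6.5, without reads of more than 1 gene. Each deposited value is a score, namely a count that the authors divided by a DESeq2 1.18.1 size factor and rounded, neither CPM nor scaled by length. The raw counts themselves were not used here. A count test had been planned for raw counts, with limma for normalised values.

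Size factors (1.149, 1.057 and 1.005 in KO, 0.795, 0.955 and 1.103 in WT, replicates 1 to 3) were estimated from the skipped and repeated whole numbers. Read totals are the value totals times these factors. Tested on simulated data, 30 factors over 21776 genes were recovered with errors of at most 0.000689%. Genes with a mean of at least 10 (13753) were fitted as log2(value + 1) with limma 3.58.1 in R 4.3.3 (lmFit, eBayes with trend), two-sided, with Benjamini-Hochberg adjustment over all genes and a threshold of 0.05, once on genotype and once on log2 read total. Fold changes on this scale understate the change of low genes. In 5 simulated sets of at least 13736 genes with 200 changed, the genotype test recovered 36 to 59% of 1.5-fold and 86 to 91% of 2-fold changes, with at most 5.63% false calls. In 5 such sets of at least 13730 genes the fit on read total recovered 7 to 17% and 48 to 61%, with at most 16.7% false calls, so that small trends can be missed. All sets added the same fixed spread to counting error for every gene and were not fitted to these data. In these data the median variance within groups was 1.09 times counting over all genes tested. The recovered shares are thus only a rough guide.

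Exonic lengths came from GENCODE M21, with the exons of all transcripts of a gene joined, and coordinates from the table. All 82 members were found in GENCODE M21, 58 with the same coordinates. Alternatives were median-of-ratios and total scaling (with and without the members), a pseudocount of 0.1, all genes with a total of 1 or more, only genes with 10 or more in each library, no mean-variance trend, limma-voom, a block for the replicate number, a threshold of 0.01, the other term added, and leaving out each library. A correction for exonic length and a fit without the deepest and the shallowest library were added after seeing the data. The genes named were *Trdn-as*, members passing either test, members at an unadjusted p under 0.05, the 5 highest and 5 lowest by fold change, by depth slope and, on the high side, by level, the paralogs, members under the filter, and the gene with the smallest p of each related list. *Rps10*, the other members at an unadjusted p under 0.05 over depth, *Rpl5*, *Rpl12* and *Snora65* were named after their values were seen. Members and lists were chosen with earlier results of these data known. Some genes of the family are not reported here.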

Additional observations from a re-analysis of the deposited data

How the results depend on the processing

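No member passed an adjusted p of 0.05 (or 0.01) for genotype or read total in the 19 alternatives run for each. The median log2 fold change of KO against WT kept its sign in 18 alternatives, from -0.09 to -0.0015, both reached by leaving out a library. Members at an unadjusted p under 0.05 numbered 0 to 2 for genotype and 0 to 8 for read total. The 2 came without WT replicate 3 (2.5%, compared with 8.60% of all genes tested) and the 8 with the exonic length correction (10% compared with 8.34%). The median slope over read total was negative throughout, but leaving out KO replicate 1 gave -0.491 and leaving out WT replicate 1 gave -0.0204, and leaving out both, chosen after seeing the data, gave -0.648. The cause was not tested. The KO minus WT difference in the share of the total lay between -0.0114 and 0.003 percentage points, that in the ratio of *Rpl3l* to *Rpl3* between -0.470 (without WT replicate 1) and -0.164 (without WT replicate 3), and *Trdn-as* between -10.5 and -8.49 on the log2 scale.

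The replicate numbers did not pair the samples (correlations of same-numbered deviations 0.048, -0.068 and -0.028). In a fit with a replicate block, the median log2 fold change was -0.04 with 0 members called, and the median slope over read total was -0.17, with 3 members at an unadjusted p under 0.05 (3.75%, compared with 6.16% of all genes tested). Low depth limits *Rps28*, *Rpl13a*, *Rpl22l1*, *Rpl36al* and *Rps27rt* most.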
